A study of Mus musculus with 48 samples.

Results

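The comparison described here is that of 3-month-old mice lacking Formin 2 (Fmn2-/-, 5 mice) with wild-type controls of the same age (Fmn2+/+, 5 mice), 10 of the 48 samples of the series, over all genes counted. RNA from the hippocampal dentate gyrus, the region whose granule cells send mossy fibers to CA3, was sequenced, and reads were counted on 48709 genes, of which 16630 had enough reads to be tested. All mice were C57BL/6J by the labels and male by the study's methods, the labels name no treatment for either group, and the Fmn2-/- allele was constitutive, so that its loss was not limited to a cell type or an age. The labels number the mice as replicates 1, 2, 3, 4 and 5 (Fmn2+/+) and 1, 2, 4, 5 and 6 (Fmn2-/-), and values below are given in that order. Separate mice are the replicates, so each p-value sets the difference between the groups against the spread between mice within them. Levels are given as CPM, the read count of a gene scaled to a common library size and normalised for library composition.

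Formin 2 is an actin nucleator: it starts and elongates unbranched actin filaments and works together with the Spire proteins and with profilin, which delivers actin monomers. It is best known for positioning the spindle in the mouse oocyte and is strongly expressed in brain. The respiratory chain, which recurs below, consists of 4 complexes that pass electrons from NADH and succinate to oxygen and an ATP synthase driven by the resulting proton gradient. All subunits but the 13 made from mitochondrial DNA are encoded in the nucleus and imported. The RNA of a tissue sample mixes all its cell types, so fewer cells of a type and less RNA per cell cannot be told apart in any value below.

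Between 19554931 and 34083622 reads per mouse were counted in Fmn2+/+ mice and between 26253666 and 42177775 in Fmn2-/- mice. Lane 5 of the sequencer held all 5 Fmn2+/+ mice together with Fmn2-/- replicate 1, and lane 6 held the remaining 4 Fmn2-/- mice, so lane and genotype largely coincide. No control was on lane 6, so in a fit with lane as a covariate, as with lane 5 alone, the effect of genotype rests on Fmn2-/- replicate 1 against the 5 controls. In a fit without Fmn2-/- replicate 1, lane and genotype coincide fully and cannot be told apart. Fmn2-/- replicate 1 stood farthest from the others in a principal component analysis (26.6 on the first component, which held 26.7% of the variance, against -17.7 to 11.6). Prox1, the transcription factor that defines granule cells, lay at 186 to 244 CPM in Fmn2+/+ and 199 to 274 CPM in Fmn2-/- mice. Fmn2-/- replicate 4 stood apart in choroid plexus markers: transthyretin (Ttr), the defining product of that tissue, stood at 3837 CPM in this mouse and between 3.41 and 38.7 CPM in the other 9. The counts of called genes, the fold changes of named genes and the medians of the main lists were also computed with each mouse left out.

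Fmn2 itself checks the labels. Its level was 103.6, 102.6, 104.3, 89.7 and 92.8 CPM in the Fmn2+/+ mice and 26.2, 26.3, 21.3, 22.3 and 22.5 CPM in the Fmn2-/- mice. The 5 Fmn2-/- mice thus kept between 21.3 and 26.3 CPM on a gene at 89.7 CPM or above in every control, and the groups do not overlap. Fmn2 (ENSMUSG00000028354) fell by 2.06 on the log2 scale with a standard error of 0.074. Its adjusted p was 2.41e-08 in the quasi-likelihood test of edgeR, after Benjamini-Hochberg correction over the 16630 genes, and every p marked edgeR below comes from the same test. The gene lies on chromosome 1 from 174501825 to 174822729 (mm10), and since reads were counted per gene, the files do not tell on which of its exons the remaining reads lay.

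A gene counted as changed where its adjusted p was below 0.05 and its log2 fold change lay at or beyond 0.25 in either direction. By this rule, and with 1750 of the 16630 genes tested at an unadjusted p under 0.05, 4 genes rose (0.0241% of those tested) and 1, Fmn2, fell (0.00601%). Since the spread between mice limits such calls, a second description was used for all lists: whether all 5 Fmn2-/- mice lay above, or below, all 5 Fmn2+/+ mice. This held for 322 genes above (1.94%) and 117 below (0.704%), and was used as a description only. Among all genes tested, the mean was higher in Fmn2-/- mice for 8493 and lower for 8137. With DESeq2, the tool of the study, 73 genes rose (0.562% of the 12986 with an adjusted p) and 17 fell (0.131%).

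Apart from Fmn2, 14 formins were tested, the family that shares its actin-nucleating core, and the groups overlapped in every one. Fmn1, the closest relative of Fmn2, had a level of 30.7, 23.6, 24.8, 19.2 and 20.3 CPM in Fmn2+/+ mice and 14.6, 21.9, 20.1, 19.2 and 19.9 CPM in Fmn2-/- mice. Its log2 fold change was -0.31 (standard error 0.13, adjusted p = 0.442, edgeR). Diaph2, a diaphanous-related formin, had values of 39.4 to 50.5 CPM and 33.5 to 41.7 CPM with a log2 fold change of -0.22 (adjusted p = 0.367, edgeR). No formin other than Fmn2 was called by edgeR, by DESeq2 or in the fit without Fmn2-/- replicate 1. Among 19 other actin nucleators and monomer-binding partners, including Spire, cofilin and Arp2/3 genes, 14 had a higher and 5 a lower mean in Fmn2-/- mice. None was called by edgeR or DESeq2 (2 had an unadjusted p under 0.05 with edgeR, as had 1750 of all 16630 genes). Arpc1a, a subunit of the Arp2/3 complex that nucleates branched filaments, was the only 1 of the 19 whose groups did not overlap, with 140.2, 134, 136, 154 and 141 CPM against 173, 169, 158, 164 and 171 CPM (log2 fold change 0.24, adjusted p = 0.141, edgeR). Profilin 1 (Pfn1), the partner of formins, stood at 93.8 to 105.5 CPM and 98.4 to 136 CPM, with its highest value, 136 CPM, in Fmn2-/- replicate 1.

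Of the called genes, the 2 that rose most sit close to Fmn2 on chromosome 1. Catspere1 (ENSMUSG00000102483, from 177808550 to 177962233), a pseudogene in the annotation that is related to an auxiliary subunit of the sperm calcium channel CatSper, had almost no reads in controls. It had 0, 0, 0.0298, 0 and 0.0325 CPM in Fmn2+/+ mice and 6.33, 4.80, 6.68, 6.82 and 6.74 CPM in Fmn2-/- mice. Over all mice of a group, 2 reads among 127960362 fell on it in the Fmn2+/+ mice and 1076 among 167810787 in the Fmn2-/- mice, a ratio of 410 per read sequenced (95% interval 113 to 3392, which covers counting error only). The adjusted p was 2.41e-08 with edgeR. Catspere2 (ENSMUSG00000091476, from 177983423 to 178172704), its protein-coding relative, had 2.09, 3.32, 2.65, 2.26 and 2.54 CPM and 13.1, 7.56, 12.5, 11.4 and 11.3 CPM. Its log2 fold change was 2.12 ± 0.16 (SE, adjusted p = 8.14e-05, edgeR), and every Fmn2-/- mouse held more than the highest control. As relatives, they may compete for the same reads, and how much belongs to which is uncertain.

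**Figure D1:**
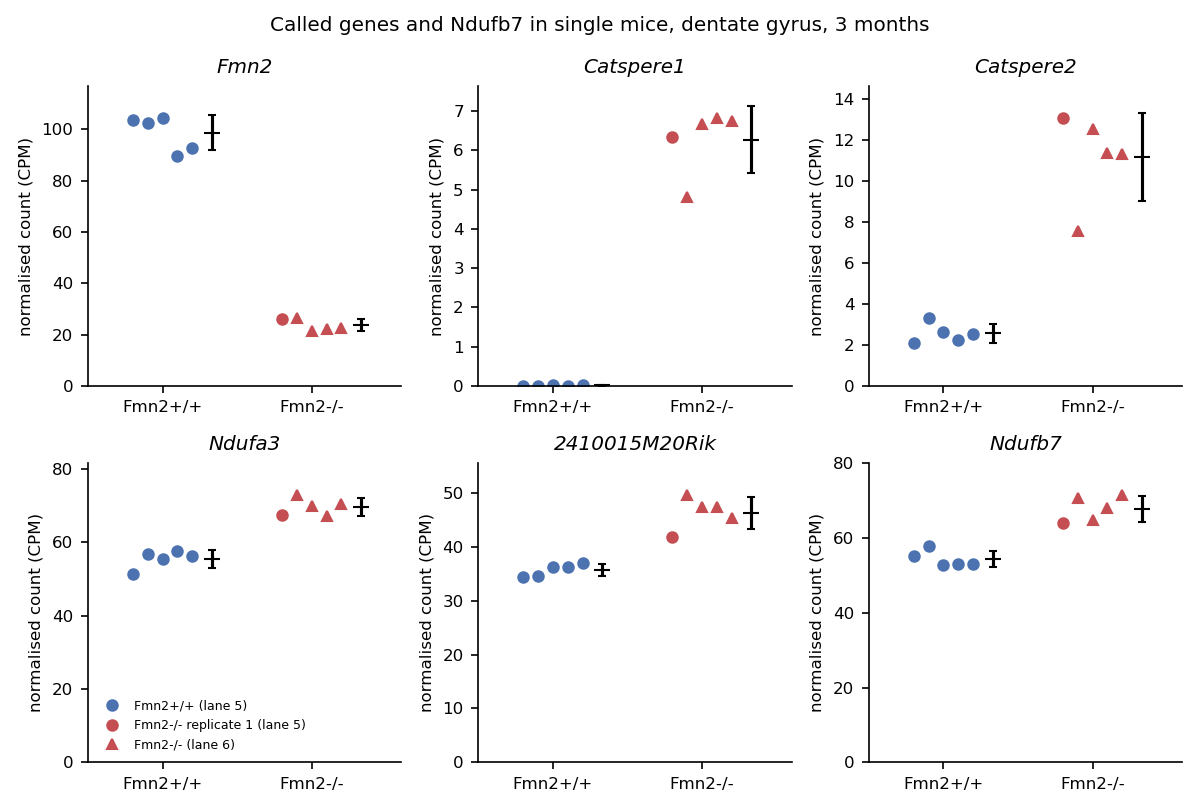
Normalised counts (CPM, y axis, from 0) of the 5 called genes and of Ndufb7 in each mouse, by genotype (x axis); circles are mice of lane 5 and triangles of lane 6, and the black bar gives the mean ± SD (n = 5). In all 6 panels the 2 genotypes do not overlap, and Fmn2-/- replicate 1, the red circle, lies with the other Fmn2-/- mice.

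The surroundings of Fmn2 were therefore examined out to 10 Mb on each side, where 168 of 498 annotated genes were tested. The mean was higher in Fmn2-/- mice for 81 and lower for 87 of them. Non-overlapping groups were seen in 7 of the 168 upwards and 3 downwards, which is 5.95%, against 2.64% of all genes tested in either direction. The interferon-inducible Ifi203, at -0.559 Mb from Fmn2, had 9.12 to 13.7 CPM and 6.83 to 11.8 CPM, and the groups overlapped. Rgs7, a neuronal regulator of G protein signalling that starts 0.236 Mb beyond Fmn2, had 154, 149, 156, 141 and 154 CPM against 140.1, 127, 127, 135 and 126 CPM (log2 fold change -0.21, adjusted p = 0.21, edgeR).

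Farther out on the same side, the groups did not overlap in Sccpdh, a putative saccharopine dehydrogenase (61.2 to 65.3 CPM against 48.4 to 58.4 CPM), and in Itpkb, 5.51 Mb away, the kinase that phosphorylates inositol trisphosphate. Itpkb had 28.7, 27.4, 25.5, 31.1 and 26.7 CPM in Fmn2+/+ mice and 20.3, 20.6, 24.5, 20.6 and 16.9 CPM in Fmn2-/- mice, and its log2 fold change was -0.44 (standard error 0.092, adjusted p = 0.141, edgeR). Values above all controls were found, at -9.02 Mb from Fmn2, for Mpc2, a subunit of the pyruvate carrier of the inner mitochondrial membrane. Mpc2 had 45.4, 45.3, 46.5, 45.3 and 49.2 CPM and 55.7, 61.8, 52.7, 56.8 and 60.2 CPM (log2 fold change 0.31, adjusted p = 0.0817, edgeR). The same held for Sdhc, a subunit of respiratory complex II described below, at -3.35 Mb. Besides Catspere1 and Catspere2, none of the 168 genes was called by edgeR in the fit of all 10 mice. DESeq2 called 4 of the 168 upwards and 2 downwards, among them Mpc2 and Itpkb.

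**Figure D2:**
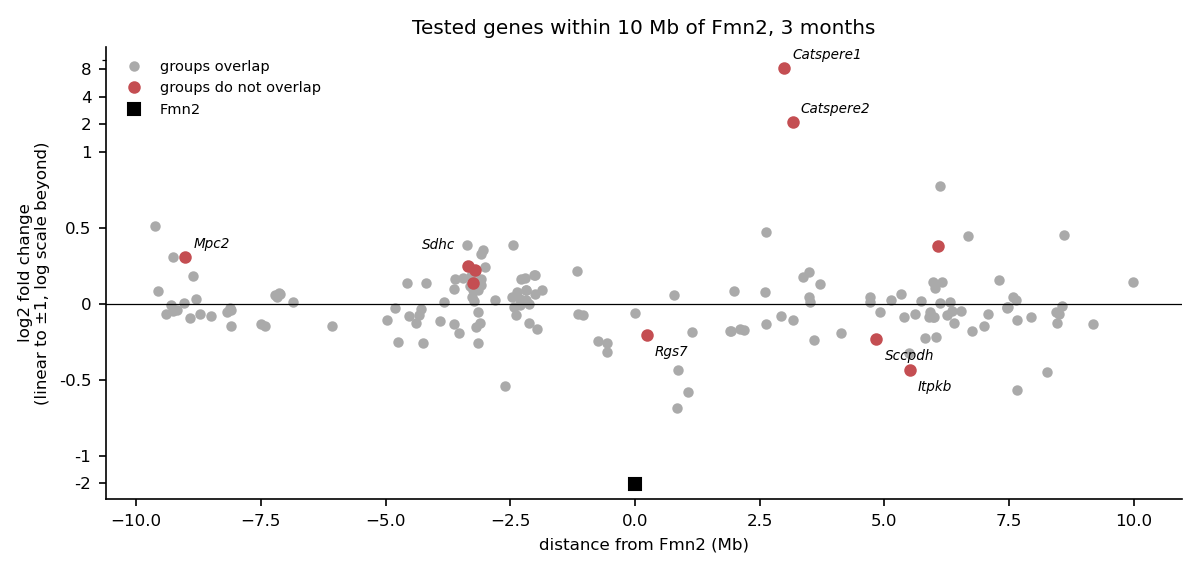
Log2 fold change of Fmn2-/- over Fmn2+/+ mice (y axis, linear between -1 and 1 and logarithmic beyond) of the tested genes within 10 Mb of Fmn2, by distance from Fmn2 (x axis, Mb). Red points are the 10 genes whose groups do not overlap, with the names of those described in the text, and Catspere1 and Catspere2 stand far above the others at about 3 Mb.

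The other called genes belong to mitochondria. Ndufa3 (ENSMUSG00000035674, chromosome 7, from 3617373 to 3620327) is an accessory subunit of complex I, the NADH dehydrogenase. It had 51.3, 56.8, 55.5, 57.8 and 56.4 CPM in Fmn2+/+ mice and 67.6, 73.0, 70.02, 67.3 and 70.4 CPM in Fmn2-/- mice. Ndufa3 rose, with a log2 fold change of 0.33 ± 0.047 (SE, adjusted p = 0.0488, edgeR), and the lowest Fmn2-/- mouse lay above the highest control. The other, 2410015M20Rik (ENSMUSG00000049760, chromosome 17, from 56607452 to 56609771), is the gene RefSeq names Micos13. Its product is a subunit of the MICOS complex, which holds the cristae of the inner mitochondrial membrane in shape. It had 34.4, 34.6, 36.2, 36.2 and 37.0 CPM and 41.7, 49.7, 47.3, 47.4 and 45.4 CPM and rose by 0.38 (standard error 0.055, adjusted p = 0.0488, edgeR). Fmn2-/- replicate 1, on the lane of the controls, had the lowest Fmn2-/- value of 2410015M20Rik, 41.7 CPM, above the highest control at 37.0 CPM. These 2 calls sit just inside the threshold. Leaving out any mouse but Fmn2-/- replicate 1 ended both, with adjusted p between 0.0875 and 0.173 for Ndufa3 and between 0.12 and 0.224 for 2410015M20Rik (edgeR). Without Fmn2-/- replicate 1 the adjusted p was 0.0154 and 0.0107 (edgeR), in a fit where lane and genotype coincide fully. With lane as a covariate, where Fmn2-/- replicate 1 is the only mouse set against the controls, the log2 fold changes were 0.28 and 0.23 (adjusted p = 0.19 and 0.195, edgeR).

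The stretch of 200 bases before the start of each of the mitochondrial genes with the smallest p is shown, for Ndufa3, 2410015M20Rik and the complex I gene Ndufb7, which sit on different chromosomes. The sequences are from RefSeq (GRCm38.p6), 5′ to 3′ on the strand of the gene, with capitals for the motifs searched: GGGCGG, the box bound by SP factors, and CCGGAAG, the core bound by ETS factors such as ELK1, on either strand.
Ndufa3, chr7:3617173-3617372, plus strand: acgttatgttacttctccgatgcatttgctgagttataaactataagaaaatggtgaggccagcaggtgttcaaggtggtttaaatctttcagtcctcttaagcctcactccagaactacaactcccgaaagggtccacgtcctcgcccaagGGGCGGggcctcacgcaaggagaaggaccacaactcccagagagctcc
2410015M20Rik, chr17:56609772-56609971, minus strand: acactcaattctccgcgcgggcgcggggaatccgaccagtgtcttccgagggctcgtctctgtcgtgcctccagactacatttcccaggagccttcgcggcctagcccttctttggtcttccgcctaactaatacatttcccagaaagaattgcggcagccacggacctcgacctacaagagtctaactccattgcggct
Ndufb7, chr8:83566558-83566757, plus strand: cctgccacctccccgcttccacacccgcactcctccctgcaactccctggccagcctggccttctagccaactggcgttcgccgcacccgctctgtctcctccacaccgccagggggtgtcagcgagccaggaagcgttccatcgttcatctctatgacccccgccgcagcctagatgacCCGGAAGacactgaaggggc
The Ndufa3 stretch held 1 SP box, which starts 48 bases before the transcription start. Within the Ndufb7 stretch 1 ETS core was found, 20 bases before the start given by RefSeq, and the 2410015M20Rik stretch held neither run of letters. The annotation used for gene coordinates starts Ndufb7 at 83566671, inside the printed stretch and ahead of that ETS core. Over windows of 300 bases (250 before and 50 after the start), GGGCGG occurred in 15 of the 32 complex I genes with an entry (46.9%) and in 62.1% of the 12174 tested genes with an entry, or 35.9% of all promoters of the table. CCGGAAG occurred in 12.5% of the complex I windows, 16.1% of those of tested genes and 9.12% of all. Among complexes II to IV it was found in 7 of 17 (41.2%), in the ATP synthase in 5 of 16 (31.2%) and among cytosolic ribosomal proteins in 24 of 62 (38.7%). Such a match is a description of letters and not a binding site.

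Complex I, whose subunits the study named as increased in this same comparison, was then taken as a whole. Of its 37 listed nuclear subunits, 36 were tested and 1 was not in the annotation. Their mean was higher in Fmn2-/- mice for 34 and lower for 2, which were Ndufs1 (-0.05) and Ndufa10 (-0.00), named because they are the exceptions. In 18 of the 36, all 5 Fmn2-/- mice lay above all 5 controls, and in none did they lie below. Over all genes tested these shares were 1.94% and 0.704%. The median log2 fold change of the list was 0.18, against 0.00 over all genes tested. Averaged over the 36 subunits on a log2 scale, the level was 5.81, 5.85, 5.80, 5.82 and 5.88 in Fmn2+/+ mice and 5.96, 6.04, 5.96, 5.98 and 6.02 in Fmn2-/- mice. The lowest Fmn2-/- mouse thus stood above the highest control. Only Ndufa3 passed the test with edgeR. With DESeq2, which called 0.562% of all genes upwards, 6 subunits rose, Ndufa2, Ndufa3, Ndufa7, Ndufb7, Ndufb11 and Ndufc1. The 15 assembly factors of complex I, which are no part of the finished enzyme, had a median of 0.07, with separate groups in Ndufaf3 and Ecsit, named after their values were seen. None was called by edgeR or DESeq2 (3 with an unadjusted p under 0.05 with edgeR, as had 1750 of all 16630 genes).

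The subunits with the smallest p were accessory ones. Ndufb7, of the membrane arm, had 55.3, 57.9, 52.9, 53.0 and 53.2 CPM in Fmn2+/+ mice and 64.03, 70.8, 64.8, 67.98 and 71.7 CPM in Fmn2-/- mice (log2 fold change 0.32, adjusted p = 0.0607, edgeR). Ndufb11, of the same arm, had 63.04, 62.004, 60.6, 62.1 and 65.1 CPM and 69.1, 77.5, 73.7, 76.9 and 79.0 CPM (log2 fold change 0.27, adjusted p = 0.0829, edgeR). In both genes the groups lay apart, and Fmn2-/- replicate 1 had the lowest of the 5 Fmn2-/- values. The same held for subunits of the matrix arm, Ndufa7, with 46.5, 48.8, 44.9, 45.5 and 46.6 CPM against 51.5, 58.1, 56.8, 60.95 and 63.4 CPM, and Ndufa2, with 47.3, 45.1, 46.0, 43.6 and 48.2 CPM against 51.4, 58.2, 59.6, 62.8 and 67.8 CPM. Their log2 fold changes were 0.32 and 0.38 with an adjusted p of 0.0829 for each (edgeR). The more abundant Ndufb9 had a smaller but equally separate difference, 174, 181, 167, 176 and 178 CPM against 194, 206, 198, 197 and 201 CPM (log2 fold change 0.18, adjusted p = 0.181, edgeR). Ndufv2, a catalytic core subunit with an iron-sulfur cluster, overlapped at 174 to 194 CPM and 183 to 209.8 CPM (log2 fold change 0.08).

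The nuclear subunits of complexes II to IV followed the same pattern. Of 24, 22 had a higher mean, and the exceptions Uqcrb (-0.07) and Uqcrc2 (-0.04) both belong to complex III. Non-overlapping groups were found in 10 of 24, all upwards, and the median log2 fold change was 0.16. Over all genes tested, 1.94% lay above all controls. Uqcr10, a small subunit of complex III, had 71.6, 77.1, 76.6, 72.5 and 78.2 CPM in Fmn2+/+ mice and 82.2, 91.5, 93.8, 97.6 and 104.8 CPM in Fmn2-/- mice (log2 fold change 0.32, adjusted p = 0.109, edgeR). Sdhc, which anchors complex II in the membrane, had 66.96, 67.7, 76.8, 74.4 and 74.0 CPM and 80.1, 88.0, 86.1, 84.8 and 88.2 CPM, and Cox6a1 of complex IV 200.3, 202, 201, 206 and 213 CPM and 238, 239.8, 226, 236 and 244 CPM. Cox4i1, among the most abundant subunits, had 396, 398, 409.8, 397 and 396 CPM and 439.5, 494, 444, 433 and 448 CPM. None of the 24 passed the test with edgeR (15 had an unadjusted p under 0.05, as had 1750 of all 16630 genes). DESeq2 called Uqcrq, Uqcr10 and Cyc1, where it called 0.562% of all genes upwards. In Uqcr10, Sdhc, Cox6a1 and Cox4i1 every Fmn2-/- mouse exceeded every control.

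Among 17 nuclear genes of the ATP synthase, 15 had a higher mean in Fmn2-/- mice, the others being Atp5g2 (-0.10) and Atpif1 (-0.00), and the median log2 fold change was 0.09. The groups lay apart in 5: Atp5e, Atp5k, Atp5j2, Atp5g3 and Atp5o. Atp5e, the epsilon subunit of the catalytic part, had 52.5, 49.2, 51.5, 51.1 and 51.0 CPM against 58.4, 70.4, 63.2, 65.01 and 78.7 CPM (log2 fold change 0.40, adjusted p = 0.084, edgeR). Atp5k had 82.1, 77.8, 79.7, 83.7 and 86.4 CPM against 94.95, 116, 104.1, 104.1 and 96.6 CPM and Atp5j2 82.8, 84.5, 89.3, 85.5 and 94.1 CPM against 96.3, 114, 111, 109.6 and 112 CPM. Both belong to the membrane part, and their log2 fold changes were 0.33 and 0.31 (adjusted p = 0.0829 for each, edgeR). Over all 77 nuclear subunits of the 5 complexes, 71 had a higher mean, and in 33 (42.9%, against the 1.94% of all genes) the Fmn2-/- mice lay above all controls. The study had reported oxidative phosphorylation as increased from these same samples, so these counts are not independent evidence of it. Ndufa2, Ndufa3, Ndufa7, Ndufb7, Atp5e, Atp5g3 and Atp5k are among the genes it listed. Of these 77, edgeR called 1, DESeq2 13, and edgeR without Fmn2-/- replicate 1 also 13, where 0.264% of all genes rose. In that last fit lane and genotype coincide fully.

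**Figure D3:**
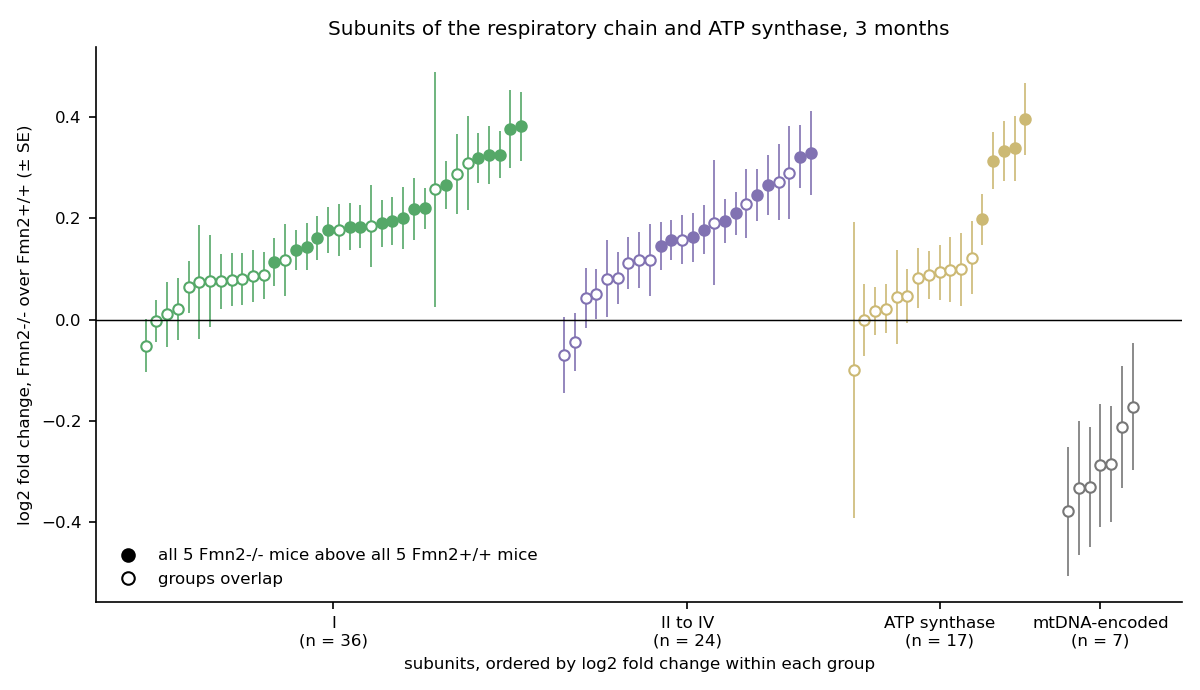
Log2 fold change of Fmn2-/- over Fmn2+/+ mice with its standard error (y axis) for each tested subunit of complex I, of complexes II to IV and of the ATP synthase, all nuclear, and for the tested subunits encoded in mitochondrial DNA (x axis, ordered by value). Filled points are subunits whose 5 Fmn2-/- mice all lay above the 5 Fmn2+/+ mice; 71 of 77 nuclear subunits lie above 0, and all 7 mitochondrially encoded ones below it, with a median of -0.29 over all mice and of -0.00 in the fit with lane, which rests on Fmn2-/- replicate 1 alone.

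The subunits encoded in mitochondrial DNA did not share this direction. Of the 13, 7 were tested, and the other 6 (mt-Nd3, mt-Nd4l, mt-Co2, mt-Co3, mt-Atp6 and mt-Atp8) had no more than 0.0596 CPM in any mouse, so that their levels cannot be read from these counts. All 7 had a lower mean in Fmn2-/- mice, with log2 fold changes from -0.38 to -0.17, but the groups overlapped in each, the smallest adjusted p was 0.343 and 5 had an unadjusted p under 0.05 (edgeR), and DESeq2 called none. mt-Co1, the catalytic subunit of complex IV, had 16348, 18430.0, 17779, 14383 and 17497 CPM in Fmn2+/+ mice and 16332, 16013, 13121, 13487 and 10349 CPM in Fmn2-/- mice. mt-Nd5 of complex I had 6786, 7375, 7239.9, 5009 and 6387 CPM and 5699, 5313, 4995, 5586 and 3639.5 CPM. Averaged over the 7 genes on a log2 scale, the level was 13.04, 13.24, 13.15, 12.85 and 13.14 in Fmn2+/+ mice and 13.08, 12.97, 12.69, 12.82 and 12.36 in Fmn2-/- mice. Replicates 4, 5 and 6 of the Fmn2-/- mice, all of lane 6, lay below every control, while replicate 1 on lane 5 and replicate 2 on lane 6 lay among the controls. The median log2 fold change of the 7 was -0.29, and -0.00 with lane as a covariate, a value that rests on Fmn2-/- replicate 1 alone. The part of lane in this difference cannot be told apart from that of genotype.

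Most other genes of mitochondrial upkeep also had a higher mean in Fmn2-/- mice. Of 77 tested mitochondrial ribosomal proteins, 61 had a higher mean, 9 lay above all controls and the median log2 fold change was 0.07. Among all genes tested, 8493 of 16630 had a higher mean and 1.94% lay above all controls. Mrpl28, of the large mitochondrial ribosomal subunit, had 28.4 to 31.7 CPM and 32.7 to 42.4 CPM. Of 26 tested genes for protein import, 22 had a higher mean, the median log2 fold change was 0.10, and 5 lay above all controls, namely Tomm7, Tomm22, Tomm40, Timm50 and Timm13, a small chaperone of the intermembrane space, with 34.6, 33.5, 34.1, 35.4 and 36.3 CPM against 42.4, 42.8, 44.8, 46.3 and 54.2 CPM (log2 fold change 0.41, adjusted p = 0.0722, edgeR). Tomm7, of the outer membrane pore, had 42.5 to 49.6 CPM and 50.7 to 63.3 CPM. Cisd1 (mitoNEET), an iron-sulfur protein of the outer membrane, had 60.2, 59.8, 60.8, 58.3 and 58.8 CPM against 66.4, 79.0, 71.6, 76.1 and 77.1 CPM, a log2 fold change of 0.31 (adjusted p = 0.0707, edgeR).

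The cytosolic ribosome was the other large list with this pattern. Of 82 ribosomal protein genes, 67 had a higher mean in Fmn2-/- mice, 17 lay above all controls and none below, and the median log2 fold change was 0.17. Over all genes tested, 1.94% lay above all controls and 0.704% below, for this and the further lists here. Rps14 had 59.7, 68.7, 73.0, 76.6 and 72.9 CPM in Fmn2+/+ mice and 86.7, 102.2, 93.8, 93.1 and 95.6 CPM in Fmn2-/- mice (log2 fold change 0.42, adjusted p = 0.0641, edgeR). Rps21 had 56.99, 59.6, 62.7, 66.2 and 65.8 CPM and 74.0, 79.1, 81.4, 78.4 and 89.1 CPM (adjusted p = 0.0694), and Rpl18 12.2, 11.2, 11.2, 14.01 and 12.2 CPM and 14.5, 18.2, 17.6, 16.4 and 19.2 CPM (adjusted p = 0.0966). All 3 were separate between the genotypes, and all 3 are among the genes the study listed, and thus chose on these samples. No ribosomal protein gene was called by edgeR (26 had an unadjusted p under 0.05, as had 1750 of all 16630 genes). DESeq2 called 11 upwards, where it called 0.562% of all genes upwards. Ribosomal protein genes have many near-identical pseudogene copies, so their counts are uncertain. Of 13 RNA polymerase II subunits, 8 had a higher mean, and the groups were separate in Polr2f, which the nuclear RNA polymerases share, with 20.05, 21.1, 19.9, 21.1 and 19.96 CPM and 25.7, 28.7, 25.5, 26.5 and 31.5 CPM (log2 fold change 0.44, adjusted p = 0.0607, edgeR). Of 39 proteasome subunits, 33 had a higher mean and 5 lay above all controls, with a median log2 fold change of 0.08. The 5 were Psma5, Psma7, Psmb6, Psmc5 and Psmb4, of the catalytic ring, which had 95.7 to 103.4 CPM and 106.6 to 132 CPM.

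Several properties moved with these lists. The tested complex I genes have short transcripts, with a median exon length of 1644 bases against 4154 bases for all genes tested, and a median GC content of 51.9% against 49.9%. After each library was corrected for length and GC content, the median log2 fold change was 0.11 for complex I, 0.08 for complexes II to IV, 0.11 for the ATP synthase and 0.12 for the cytosolic ribosome, against 0.01 for all genes. With lane as a covariate these medians were 0.14, 0.11, 0.11 and 0.18, and with lane 5 alone 0.13, 0.09, 0.09 and 0.17. Both fits make the same contrast, of Fmn2-/- replicate 1 with the 5 controls, and are not separate checks. That mouse lay above all 5 controls in 25 of 36 complex I subunits, where it did so in 28.8% of all genes and lay below them all in 25.5%.

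**Figure D4:**
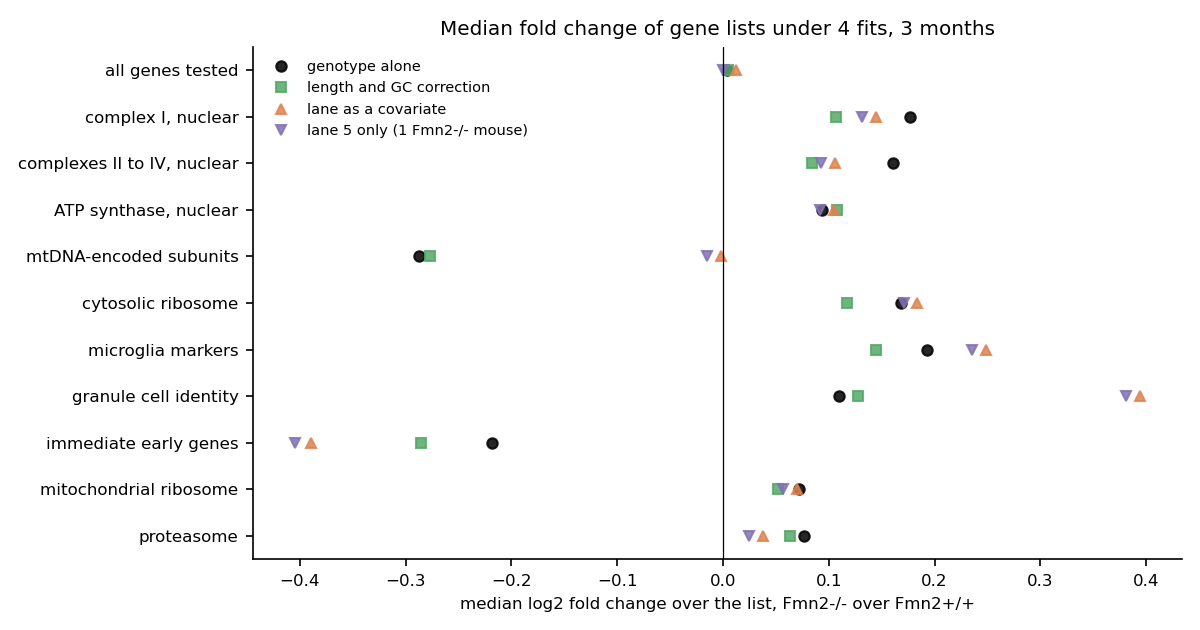
Median log2 fold change over the tested members of each list (x axis) under 4 fits: genotype alone, adjusted for length and GC content, with lane as a covariate, and lane 5 only; the last 2 both rest on Fmn2-/- replicate 1 alone. The nuclear respiratory lists and the cytosolic ribosome lie above 0 in each fit and all genes tested near 0, whereas the mitochondrially encoded subunits lie near 0 where that mouse alone stands for the genotype.

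Cell type markers were compared next. Of 13 microglia markers, 12 had a higher mean in Fmn2-/- mice, the exception being P2ry12, and the median log2 fold change was 0.19. Their summed level was 361, 392, 400.5, 405 and 383 CPM in Fmn2+/+ mice and 439.6, 488, 419, 418 and 407 CPM in Fmn2-/- mice, without overlap. Tyrobp, the signalling adaptor of microglial receptors, had 6.97, 8.71, 8.31, 8.71 and 8.61 CPM against 11.1, 13.5, 9.91, 10.6 and 10.5 CPM, and Tmem119 11.8, 14.1, 15.3, 14.7 and 15.4 CPM against 17.0, 20.3, 17.4, 19.3 and 17.2 CPM, and in both all Fmn2-/- mice exceeded all controls. Their adjusted p was 0.21 and 0.215 (edgeR), so neither was called. DESeq2 called both and C1qc, a complement component, which had 19.2 to 22.3 CPM against 21.1 to 26.9 CPM, and edgeR called no marker (7 with an unadjusted p under 0.05). Over all genes tested, 1750 of 16630 were under that p with edgeR, and DESeq2 called 0.562% upwards. Cathepsin C (Ctsc), a lysosomal protease, had 12.3, 13.6, 12.6, 13.7 and 13.5 CPM against 15.8, 16.9, 17.6, 17.6 and 15.0 CPM (log2 fold change 0.34, adjusted p = 0.141, edgeR). This small difference in microglia markers accompanied the differences in respiratory and ribosomal genes in the same mice, and its part in them was not tested.

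Astrocyte genes were mixed. Of 13 markers, 9 had a higher and 4 a lower mean, with 1 above all controls (Cst3) and 2 below (Gja1 and Aldh1l1). Over all genes tested, 1.94% lay above all controls and 0.704% below. Gfap, the intermediate filament that increases in reactive astrocytes, had 381, 367, 273, 446 and 303 CPM in Fmn2+/+ mice and 544, 574, 461, 419 and 462 CPM in Fmn2-/- mice (log2 fold change 0.48, adjusted p = 0.249, edgeR), and the groups overlapped. Cst3, a secreted protease inhibitor, lay above all controls, with 654, 738, 682, 759 and 706 CPM against 949, 957, 800.1, 785 and 826 CPM. The gap junction gene Gja1, also an astrocyte marker, lay below them, with 279, 295, 279.7, 277 and 267 CPM against 246, 257, 241, 237 and 215 CPM (log2 fold change -0.22, adjusted p = 0.21, edgeR). Id3, a repressor of differentiation genes, had 13.1 to 18.7 CPM and 17.2 to 23.4 CPM. DESeq2 called Gfap, Id3 and Cst3, where it called 0.562% of all genes upwards. With edgeR none of the 13 was called (5 with an unadjusted p under 0.05, as had 1750 of all 16630 genes). Gfap, Id3 and Cst3 are among the genes the study listed for this comparison, and thus chose on these samples. Their values are not independent evidence of a direction. Of 7 tested genes of reactive astrocytes, 5 had a higher mean and none had separate groups.

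Of 10 granule cell identity genes, 8 had a higher mean and none had separate groups, but Fmn2-/- replicate 1 exceeded all controls in all 10. The summed level of the list was 883, 1104, 999, 1131 and 1107 CPM in Fmn2+/+ mice and 1340.3, 1068, 963, 1063 and 966 CPM in Fmn2-/- mice, highest in that replicate. The median log2 fold change of the list was 0.11, and -0.0024 without that mouse. The 13 markers of pyramidal and mossy cells summed to between 510.2 and 604 CPM in Fmn2+/+ mice and between 606 and 633 CPM in Fmn2-/- mice. Pcp4, a calmodulin-binding protein found in CA2, was the 1 of the 13 with separate groups, at 31.3, 46.7, 49.6, 45.6 and 41.6 CPM against 68.05, 64.3, 50.4, 56.9 and 55.5 CPM (log2 fold change 0.46, adjusted p = 0.22, edgeR). Of 10 interneuron markers, 5 had a higher and 5 a lower mean, and of 13 oligodendrocyte markers 10 had a lower mean, with groups that overlapped in each. The 9 endothelial and mural markers and 11 genes of newborn neurons and progenitors also overlapped throughout. The 4 tested choroid plexus markers summed with the untested ones to between 23.02 and 65.7 CPM in all mice but Fmn2-/- replicate 4, at 3961 CPM.

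**Figure D5:**
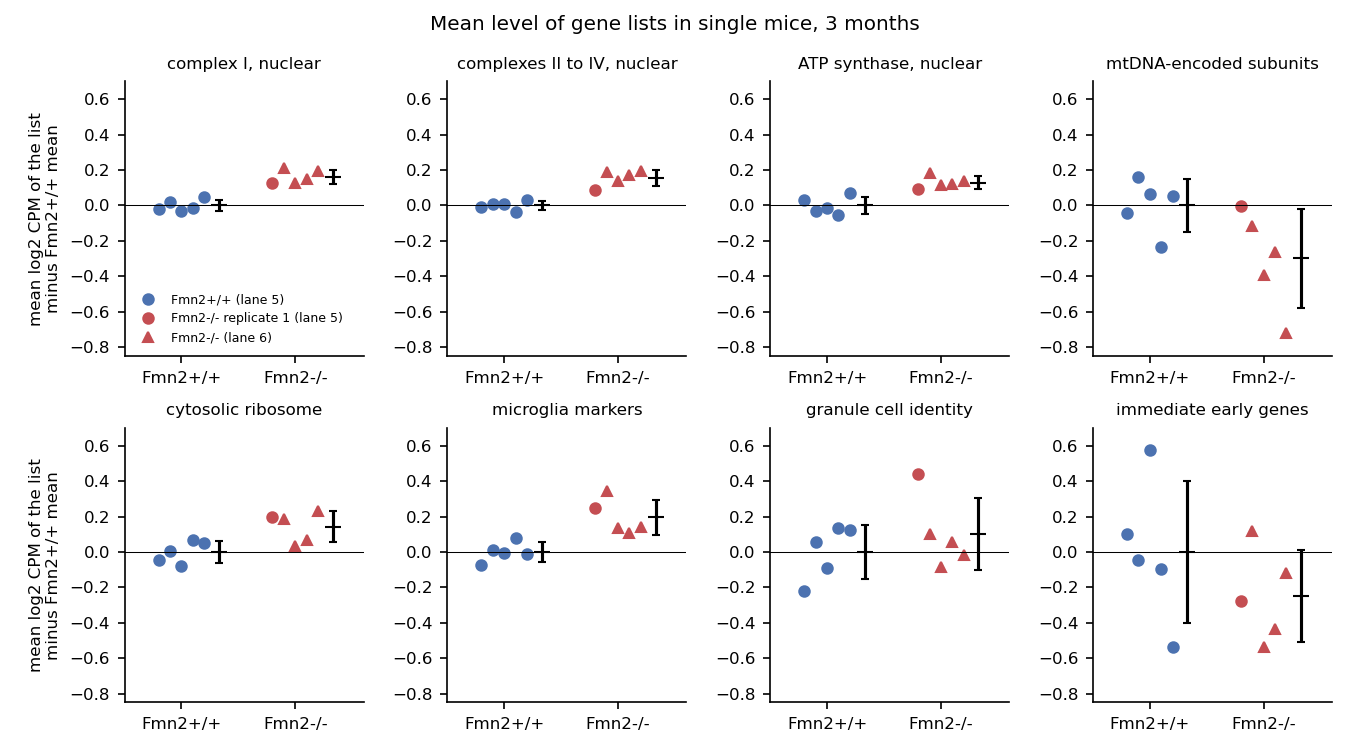
Mean log2 CPM of each of 8 gene lists in each mouse, relative to the mean of the Fmn2+/+ mice (y axis), by genotype (x axis); circles are mice of lane 5, triangles mice of lane 6, and black bars the mean ± SD (n = 5). The 3 nuclear respiratory lists and the microglia markers do not overlap between genotypes. The cytosolic ribosome, the mitochondrially encoded subunits, the immediate early genes and granule cell identity do, and granule cell identity is highest in Fmn2-/- replicate 1.

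Since mice of this genotype were studied for fear extinction and mossy fiber plasticity, genes of these functions were described as well. No member passed the test among 22 presynaptic genes of mossy fibers (13 with a higher mean, 9 lower), 22 glutamate receptor genes (7 higher, 15 lower) and 21 genes of the stress hormone response and of fear extinction (7 higher, 14 lower), and none of these genes had separate groups. At an unadjusted p under 0.05 there were 2, 3 and 2 (edgeR), where 1750 of all 16630 genes were, and DESeq2 called none. The same held for 13 genes of the route from ERK through ELK, SP and SRF factors (6 higher, 7 lower) and 14 cytoskeletal targets of SRF (10 higher, 4 lower), with 3 and 0 at an unadjusted p under 0.05. All 17 immediate early genes, which report recent neuronal activity, had a lower mean in Fmn2-/- mice, with a median log2 fold change of -0.22, but the groups overlapped in each. Without Fmn2+/+ replicate 3 that median was -0.06, and without Fmn2-/- replicate 2 or Fmn2+/+ replicate 5 it was -0.38 and -0.37. Npas4, an activity-dependent transcription factor, had 21.7, 10.9, 29.9, 19.98 and 6.37 CPM against 15.4, 12.2, 7.55, 8.09 and 12.5 CPM, and Egr3 27.5, 25.5, 28.5, 25.5 and 20.7 CPM against 13.4, 21.1, 21.05, 25.05 and 18.8 CPM. Their adjusted p was 0.517 and 0.414 (edgeR). The controls alone spread over 6.37 to 29.9 CPM in Npas4.

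Other genes with a small p in the downward direction were of diverse function, and none was called by edgeR, while DESeq2 called Acsl3, Ednrb, Stk24, Pcm1 and Hspa8 of the 6 named here. Acsl3, which activates long-chain fatty acids, had 275, 272, 262, 290.1 and 241 CPM in Fmn2+/+ mice and 218, 226, 231, 228 and 208 CPM in Fmn2-/- mice (log2 fold change -0.27, adjusted p = 0.141, edgeR). Ppig, a nuclear prolyl isomerase, had 108, 111, 108, 103.1 and 103.02 CPM and 91.8, 93.4, 92.97, 94.2 and 82.3 CPM (adjusted p = 0.141). The endothelin receptor gene Ednrb had 52.4 to 58.2 CPM and 41.0 to 51.4 CPM, the kinase gene Stk24 47.4 to 52.0 CPM and 36.6 to 44.1 CPM, and Pcm1, of the centriolar satellites, 134 to 152 CPM and 102.8 to 131 CPM. Hspa8, the constitutive Hsp70 chaperone, had 98.2, 96.5, 99.5, 102.4 and 116 CPM and 87.2, 91.97, 80.1, 87.9 and 73.2 CPM (log2 fold change -0.29, adjusted p = 0.21, edgeR). In all 6 of these every Fmn2-/- mouse lay below every control. In the upward direction Tmem59, a Golgi and endosome membrane protein, had 114, 119, 118, 123 and 119.7 CPM and 135, 149, 146, 137 and 146 CPM (adjusted p = 0.0722, edgeR), and Gm10036, a processed pseudogene, 3.87 to 5.25 CPM and 6.77 to 8.43 CPM. Of 27 genes the study itself listed for this comparison, and thus chose on these samples, 25 had a higher and 2 a lower mean, and the groups did not overlap in 24; that count is not independent evidence of their direction.

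At 8 months, measured in 3 other Fmn2+/+ and 5 other Fmn2-/- mice, Fmn2 stood at 76.1 to 104.3 CPM and 21.1 to 27.7 CPM. Catspere2 had 2.43, 0.74 and 1.93 CPM in the Fmn2+/+ mice and 10.2 to 14.9 CPM in the Fmn2-/- mice, and the interaction of age and genotype of Fmn2, Catspere1 and Catspere2 did not pass the test (adjusted p = 0.539, 0.753 and 0.289, edgeR). Ndufa3 had 80.1, 77.6 and 80.0 CPM in Fmn2+/+ mice and between 74.4 and 91.1 CPM in Fmn2-/- mice, and the difference of its log2 fold change, 8 minus 3 months, was -0.33 (adjusted p = 0.0354, edgeR). For 2410015M20Rik the same difference was -0.35 (adjusted p = 0.0517, edgeR). Among the 58 genes named for a fold change here, 25 passed this interaction test, where 3.73% of all 17046 genes did. Many of these genes were named for their difference at 3 months, which is part of the interaction, and others for their level in a list or as formins. Fmn2+/+ replicate 1 of 8 months was sequenced on lane 6 and to 43921030 reads, while the other 7 mice of that age were on lane 7 with at most 11675280. Without it 1 of the 58 passed, without Fmn2+/+ replicate 3 of that age 7 did, and without Fmn2+/+ replicate 2 of that age 38. With lane as a covariate, where the effect at 3 months rests on Fmn2-/- replicate 1 alone, 0 passed (edgeR, 29 at an unadjusted p under 0.05).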

How the data were processed

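RNA was extracted from whole dentate gyrus with TRIZOL and made into libraries with the TruSeq RNA v2 kit, which keeps no strand. The authors aligned reads to mm10 with STAR and deposited raw counts per gene made with HTSeq (intersection-nonempty mode); strand setting and annotation release are not given in the sources used here. Reads of overlapping, antisense or near-identical genes can therefore not be told apart. From the deposited counts of the 10 mice, genes were filtered with filterByExpr, normalised by TMM and tested with the quasi-likelihood test of edgeR 4.0.16 (limma 3.58.1, R 4.3.3), with genotype as the only term and Benjamini-Hochberg adjustment. Names and coordinates came from GENCODE M21 (GRCm38). The interaction of age and genotype was fitted with the 8 mice of 8 months. Alternatives were DESeq2 1.42.0, its size factors, no filter, lane as a covariate, lane 5 only, a correction for length and GC content, thinned counts, a replicate block and leaving out each mouse. The fits were tested on simulated data. Values behind list means are log2(CPM + 0.5). The counting interval of Catspere1 is an exact 95% interval and covers counting error only.

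Genes were named where they were called, had 1 of the 12 smallest p in either direction among non-overlapping genes with an average of at least 1 CPM, had 1 of the 3 smallest p or 2 highest levels in a list, were listed by the study, or were formins or the nearest neighbours of Fmn2; from these, and with a few exceptions named as such, 58 are described; a few others that met the rule are not reported here. Members and lists were chosen with earlier results of these data known. The counts of 30 other samples were not used.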

Additional observations from a re-analysis of the deposited data

Results flagged for a closer look

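Among 140 groups of mice examined for a single mouse far from the other 4 (Dixon's test at the 95% level), 10 held one, and chance flags about 1 in 20 groups. The level of Ttr in Fmn2-/- replicate 4 was 3837 CPM. Fmn2-/- replicate 2 stood apart with 4.80 CPM of Catspere1, the lowest of its group, 494 CPM of Cox4i1 and 63.3 CPM of Tomm7, the highest of theirs. Fmn2-/- replicate 1 had the lowest level of Atp5j2 in its group, 96.3 CPM, and Fmn2-/- replicate 6 of Ppig, 82.3 CPM. Among Fmn2+/+ mice, replicate 4 was lowest in Ednrb with 52.4 CPM, replicate 3 was highest in Cox4i1 with 410 CPM, and replicate 1 was lowest in Tyrobp with 6.97 CPM. The mean log2 level of proteasome subunits stood apart in Fmn2+/+ replicate 5, at 5.66.

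By the interaction test of edgeR, 25 of the 58 genes described passed at an adjusted p under 0.05. That count was 1 without Fmn2+/+ replicate 1 of 8 months and 1 with the correction for length and GC content. Values are the log2 fold change at 8 months minus that at 3 months. Among complex I subunits the difference was -0.33 for Ndufa3, -0.90 for Ndufb7, -0.58 for Ndufb11 and for Ndufa7, -0.49 for Ndufa2 and -0.36 for Ndufb9. In complexes III and IV it was -0.45 for Uqcr10, -0.42 for Cox6a1 and -0.37 for Cox4i1. In the ATP synthase it was -0.58 for Atp5k, -0.39 for Atp5j2 and -0.56 for Atp5e. For Timm13 the difference was -0.61, for Mrpl28 -0.39, for Rps14 -0.47, for Rps21 -0.41, for Rpl18 -0.68, for Polr2f -0.69, for Arpc1a -0.29 and for Pcp4 -0.58. It was positive for Ppig at 0.39, Pcm1 at 0.50, Stk24 at 0.46, Fmn1 at 0.75 and Diaph2 at 0.53. Ndufb7 had 91.2, 63.01 and 76.5 CPM in Fmn2+/+ mice of 8 months and 48.7 to 56.7 CPM in Fmn2-/- mice of that age, the reverse order of that at 3 months. The 91.2 CPM belongs to Fmn2+/+ replicate 1, the only mouse of that age on lane 6. Many of these genes were picked on the 3-month difference and others for their level in a list or as formins, and lane and age largely coincide.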

How the results depend on the processing

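The 5 genes called at 3 months became 90 with DESeq2, 14 without a filter on low counts, 3 with DESeq2 size factors, with lane as a covariate or with the correction for length and GC content, and 166 with lane 5 only, of which 119 were lower in the lone Fmn2-/- mouse, assumed to vary like the controls. The fit with lane rests on the same mouse, since no control was on lane 6. Leaving out single mice, the count ran from 3 to 49. It was 49 without Fmn2-/- replicate 1, where lane and genotype coincide fully, and 5 without Fmn2+/+ replicate 4. The cause of these changes in the count was not tested. The labels number the mice but state no pairing. Deviations of same-numbered mice correlated at -0.14, 0.22, 0.02 and 0.03, and those of differently numbered mice at -0.23 to 0.25. These values cannot show whether the numbers pair the mice. The replicate block, without or with the length and GC correction, left 2 calls each. It used only replicate numbers present in both genotypes, so at 3 months Fmn2+/+ replicate 3 and Fmn2-/- replicate 6 were left out. Catspere2 lost its call there (adjusted p = 0.184 and 0.132, edgeR), with a log2 fold change of 2.11 in the block alone. The median log2 fold change of complex I was 0.107 with the length and GC correction, 0.0835 with that and the replicate block, and 0.13 with lane 5 only, and 0.15 to 0.19 with 1 mouse left out. That of complexes II to IV was 0.106 with lane, 0.0840 with length and GC, 0.0964 with both block and correction and 0.0928 with lane 5 only, and 0.14 to 0.18 with 1 mouse left out. That of the ATP synthase ran from 0.06 to 0.11 and that of mitochondrially encoded subunits from -0.38 to -0.20 with 1 mouse left out, the latter being -0.0015 with lane and -0.0148 with lane 5 only. The interaction counted 25 named genes, 13 after thinning, 1 with the length and GC correction, 0 with lane or with the replicate block, with or without that correction (29, 35 and 14 at an unadjusted p under 0.05, edgeR), and 1 to 38 with 1 mouse left out; 10 of the 18 mice took it below 17. Granule cell identity had a median of -0.0024 without Fmn2-/- replicate 1 and up to 0.171 without another mouse. All directions of named genes held, and calls were gained with DESeq2 (33 genes), without Fmn2-/- replicate 1 (18) and without a filter (7).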

Other observations

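Some genes split mice of the same genotype, and they are named here after their values were seen. A830036E02Rik, a transcript annotated as antisense on chromosome 11 from 99416956 to 99425497 (mm10), had 30.2, 29.6, 0.57, 0.30 and 32.5 CPM in the Fmn2+/+ mice and at most 0.34 CPM in any Fmn2-/- mouse. Its adjusted p was 0.102 with edgeR and 3.57e-06 with DESeq2, which called it. A830036E02Rik overlaps Krt12, a keratin gene, which had 1.43 ± 0.57 CPM (SD, n = 5) in Fmn2+/+ mice and 0.20 ± 0.11 CPM (SD, n = 5) in Fmn2-/- mice, and reads of the 2 genes cannot be told apart. The groups did not overlap in Krt12, with a log2 fold change of -2.75 (adjusted p = 0.059, edgeR). Gm5514, a processed pseudogene, stood between 6.64 and 17.1 CPM in 3 Fmn2+/+ and 4 Fmn2-/- mice and at or below 0.33 CPM in the other 3 mice.

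A gene of neurons outside the granule cell layer also varied within both genotypes. Slc17a6, a vesicular glutamate transporter of thalamic and other neurons, had 54.5, 41.4, 19.4, 14.6 and 3.804 CPM in Fmn2+/+ mice and 19.6, 53.7, 6.82, 2.81 and 21.6 CPM in Fmn2-/- mice. Pomc, the hormone precursor, had 17.7 CPM in Fmn2-/- replicate 2 and at most 0.86 CPM in the other 9 mice. Besides Ttr, 1500015O10Rik (26.1 CPM), F5 (18.7 CPM) and Aqp1 (8.22 CPM) were high in Fmn2-/- replicate 4 alone.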
